A study of Homo sapiens with 18 samples.

Results

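The genes described here are 10 targets and restraints of signalling through the kinase ERK: ETV1, ETV4 and ETV5, SPRY1, SPRY2 and SPRY4, DUSP4, DUSP5 and DUSP6, and PHLDA1. They were chosen by symbol, and each matched 1 row of the 58381 in each deposited table. RNA sequencing measured their transcripts in 3 established lines derived from Ewing sarcoma, a bone and soft-tissue tumour: TC-32, TC-71 and A673. Per the series text, EWSR1::FLI1 was depleted in these lines with a small interfering RNA against FLI1 (siFLI1), and siNeg was the negative control. Each line gave 3 siNeg and 3 siFLI1 libraries, 18 in all. Both RNAs were given by reverse transfection at 20 nM, with a lipid reagent and no genetic change. TC-32 and TC-71 were grown in RPMI medium and A673 in DMEM. Line and medium cannot be told apart where A673 is compared with the others. Column names give 48 h for TC-32 and TC-71 and no time for A673, so any difference in time is tied to line as well. A673 is known to carry an activated BRAF, a kinase that feeds ERK. Each line is a single model, only 1 siRNA against FLI1 was used here, and effects of its sequence on other transcripts cannot be told apart from depletion of the fusion. The labels do not say whether replicates came from separate cultures, so p-values measure the spread between these libraries, which may be technical. A further line, ES-5838, and siERG are named in the series text and were not analysed here.

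Growth factor receptors drive RAS, RAF, MEK and ERK in sequence, and active ERK switches on a characteristic set of genes. Part of that set acts back on the pathway: Sprouty proteins restrain signalling between receptor and RAF, and dual-specificity phosphatases such as DUSP6 remove phosphate from ERK itself. The PEA3 factors ETV1, ETV4 and ETV5 are transcription factors of the ETS family, to which FLI1 also belongs, and carry ERK output into further transcription. In Ewing sarcoma, EWSR1::FLI1 binds GGAA repeats and ETS sites and both activates and represses genes. ERK activity itself was not analysed here, and all values below are transcript abundances.

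A673 libraries were the deepest, with 114564479 to 120993595 counts in all, against 24102487 to 33669271 in TC-32 and 19685354 to 37234528 in TC-71. Replicates correlated at 0.995 or more across genes (Pearson, log2 of CPM plus 0.5, 18 pairs), and no pair agreed within sampling noise (chi-square at least 2.44 per degree of freedom). Levels are given as CPM, depth-scaled counts computed within each line. FLI1, the targeted gene, was lower in siFLI1 without overlap in every line, with log2 fold changes of -2.09 in A673, -1.47 in TC-71 and -1.03 in TC-32. Of 8 transcripts that mark Ewing sarcoma, all that were tested were also called lower in siFLI1: 8 of 8 in TC-32, 7 of 7 in TC-71 and 8 of 8 in A673. Over all genes tested, 40.1%, 35.0% and 35.4% were called lower in these lines. CD99, a defining marker, is listed at 0 counts in all TC-71 libraries. Its siNeg libraries held 3886 to 4374 counts in TC-32 and 43454 to 44832 in A673. These values are from the chromosome X row of CD99. Rows marked as the Y copy of a gene were left out, so any such CD99 row was not read. TC-71 was also counted with another tool, so absence of CD99 transcript and an effect of counting cannot be told apart. Of 4 leukocyte markers, PTPRC held at most 10 counts per library, CD3E at most 1 and MS4A1 none, and CD14 stayed below 1 CPM on average in every group. Of 3 epithelial and 3 endothelial markers, the highest group mean was 4.44 CPM, for CDH1 in TC-32 siFLI1, against 0.162 CPM in siNeg (log2 fold change 4.74). CDH5, an endothelial cadherin, rose in TC-32 (2.28) and A673 (2.06), and PECAM1 fell in both (-2.28 and -1.10), all at group means of at most 2.10 CPM. KRT5, a keratin, fell in TC-32 (-0.97), and in A673 it held 0 counts in every siNeg library and 13 to 21 with siFLI1. VWF and CD14 rose in A673 (2.77 and 1.43), where neither exceeded 0.256 CPM on average. The part of these low transcripts in the results below was not tested. In whole cultures, a change in every cell and a change in some of the cells cannot be told apart.

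RefSeq promoter sequences matched 6 of the 10 genes, and 5 are shown because their genes cover the kinds of response described below: SPRY1 and PHLDA1 rose in every line, SPRY4 rose in every line and DUSP6 in TC-32 and TC-71, to very different extents, and ETV1 moved in opposite directions. Each window is the 250 bases ahead of the RefSeq transcript start in GRCh38.p14, read 5′ to 3′ on the strand of the gene. A single start was used per gene. The SPRY4 and ETV1 windows lie inside the gene positions given below, so these genes also have a start further upstream, which was not searched. Capitals mark GGAA, the core of ETS sites, or TTCC, the same core on the other strand.
PHLDA1 (chr12:76031777-76032026, minus strand): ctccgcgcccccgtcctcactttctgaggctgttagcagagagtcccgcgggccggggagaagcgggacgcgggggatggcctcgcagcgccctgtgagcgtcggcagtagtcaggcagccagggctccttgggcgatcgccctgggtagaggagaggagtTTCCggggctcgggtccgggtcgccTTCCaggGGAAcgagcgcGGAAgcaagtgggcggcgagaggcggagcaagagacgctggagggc
SPRY1 (chr4:123396545-123396794, plus strand): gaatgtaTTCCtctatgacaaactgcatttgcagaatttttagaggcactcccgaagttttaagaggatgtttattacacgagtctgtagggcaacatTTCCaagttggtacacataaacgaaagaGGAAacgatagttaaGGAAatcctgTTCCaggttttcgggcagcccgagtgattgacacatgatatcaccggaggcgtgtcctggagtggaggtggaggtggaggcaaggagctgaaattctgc
SPRY4 (chr5:142324248-142324497, minus strand): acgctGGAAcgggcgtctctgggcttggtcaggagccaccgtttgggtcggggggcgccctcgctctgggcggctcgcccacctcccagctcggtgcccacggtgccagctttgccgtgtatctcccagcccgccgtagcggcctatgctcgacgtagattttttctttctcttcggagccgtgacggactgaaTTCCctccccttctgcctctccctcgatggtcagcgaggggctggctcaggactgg
DUSP6 (chr12:89352502-89352751, minus strand): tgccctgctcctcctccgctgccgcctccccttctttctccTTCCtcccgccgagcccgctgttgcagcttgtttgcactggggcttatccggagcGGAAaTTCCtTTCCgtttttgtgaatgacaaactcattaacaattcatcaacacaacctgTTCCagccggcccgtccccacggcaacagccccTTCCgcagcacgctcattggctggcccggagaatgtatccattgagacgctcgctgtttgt
ETV1 (chr7:13990703-13990952, minus strand): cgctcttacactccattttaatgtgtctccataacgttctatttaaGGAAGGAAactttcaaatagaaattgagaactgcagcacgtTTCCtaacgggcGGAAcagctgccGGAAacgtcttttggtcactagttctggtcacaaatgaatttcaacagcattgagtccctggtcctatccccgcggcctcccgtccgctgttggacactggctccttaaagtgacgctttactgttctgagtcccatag
The ETV1 window held 5 cores and was the single window of the 6 with GGAAGGAA, the tandem form, which begins 204 bases ahead of the start. Of all 27305 RefSeq windows of this length, 92.8% held GGAA on either strand, with a median of 3 matches, and 2.99% held GGAAGGAA. PHLDA1 held 4 cores, SPRY1 5, SPRY4 2, DUSP6 6 and SPRY2 3. CCGGAAGT, a full ETS consensus that contains GGAA (3.64% of windows), occurred in none of the 6, searched on both strands. Nor did the capicua forms TGAATGAA (1.42%) and TGAATGGA (0.88%), or the AP-1 site TGANTCA (6.60%). Other forms of the capicua site were not searched. A match is a description of letters, and binding was not analysed here.

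With siFLI1, 5 of the 10 genes rose in all 3 lines: SPRY1, SPRY2, SPRY4, DUSP5 and PHLDA1. In TC-32, all 10 were tested, 8 rose and 2 fell, where 41.3% of all 16227 genes tested rose and 40.1% fell. Of the 8 genes tested in TC-71, 7 rose and 1 fell, each at least 2-fold, against 36.8% and 35.0% of 17085 genes. ETV4 and DUSP4 were at or near 0 counts in TC-71 and were not tested there. In A673, all 10 were tested, 8 rose and 0 fell, against 35.6% and 35.4% of 18444 genes, and the other 2 were ETV5 and DUSP6. A rise of at least 2-fold was called for 6 genes in TC-32 (22.0% of all genes tested), 7 in TC-71 (14.1%) and 5 in A673 (13.3%). A fall of at least 2-fold was called for 1 gene in TC-32, ETV1 (15.6%), 1 in TC-71, ETV5 (9.38%), and 0 in A673 (9.87%). Libraries of the 2 groups were fully apart for 10 of 10 genes in TC-32, where this held for 82.6% of all genes tested, 8 of 8 in TC-71 (73.8%) and 9 of 10 in A673 (73.6%). The median log2 fold change of the members tested was 1.11 in A673, 1.65 in TC-32 and 2.64 in TC-71, and that of all genes tested was -0.01, 0.02 and 0.02. A gene was called at a Benjamini-Hochberg adjusted p under 0.05 in edgeR's quasi-likelihood test, and every adjusted p below is from that test over all genes tested in the line. Positions are from GENCODE release 44 (GRCh38).

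**Figure D1:**
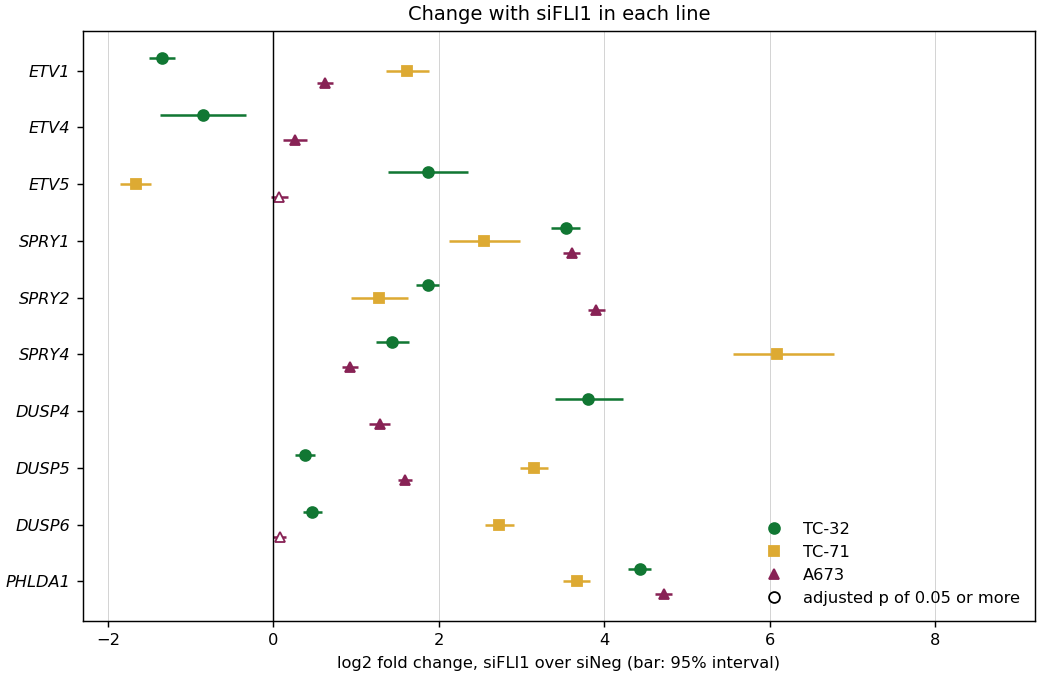
Log2 fold change of siFLI1 over siNeg (horizontal axis) for the 10 genes (rows) in TC-32 (circles), TC-71 (squares) and A673 (triangles), with 95% intervals as bars and open symbols where the adjusted p was 0.05 or more. SPRY1, SPRY2, SPRY4, DUSP5 and PHLDA1 lie to the right of 0 in all 3 lines, ETV1 and ETV5 lie on both sides, and ETV4 and DUSP4 have no TC-71 value.

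PHLDA1, a pleckstrin homology domain protein whose transcript is a widely used readout of ERK output, had the largest rise of the 10 genes in TC-32 and A673 (ENSG00000139289.13, chromosome 12, 76025447 to 76031776). PHLDA1 in TC-32 stood at 6.20, 5.77 and 6.27 CPM in the siNeg libraries and 129, 133 and 130.1 CPM in the siFLI1 libraries. PHLDA1 in TC-71 stood at 5.12, 6.08 and 4.72 CPM in the siNeg libraries and 66.2, 65.7 and 67.4 CPM in the siFLI1 libraries. PHLDA1 in A673 stood at 15.9, 16.0 and 15.1 CPM in the siNeg libraries and 433, 400.5 and 404 CPM in the siFLI1 libraries. The groups were far apart in each line, and per kilobase of exon the siFLI1 libraries of A673 held the highest mean level of any of the 10 genes. PHLDA1 rose by 4.72 (SE 0.0476, adjusted p = 9.80e-20) in A673, 4.43 (SE 0.0666, 1.75e-25) in TC-32 and 3.66 (SE 0.0796, 8.50e-26) in TC-71 on the log2 scale. The rise of PHLDA1 exceeded that of 97.5%, 98.2% and 98.6% of the genes tested in TC-32, TC-71 and A673. Of its exon bases, 9.4% overlap a gene on the opposite strand, which held at most 2 counts per library.

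Sprouty transcripts rose in all 3 lines, each in its own proportion. SPRY1 (ENSG00000164056.10, chromosome 4, 123396795 to 123403760) encodes a membrane-bound inhibitor of receptor signalling to RAS and RAF. SPRY1 in TC-32 stood at 3.69, 4.56 and 3.75 CPM in the siNeg libraries and 46.3, 45.9 and 47.1 CPM in the siFLI1 libraries. SPRY1 in TC-71 stood at 0.706, 1.11 and 0.625 CPM in the siNeg libraries and 4.79, 5.28 and 3.88 CPM in the siFLI1 libraries. SPRY1 in A673 stood at 6.59, 6.17 and 6.63 CPM in the siNeg libraries and 79.5, 79.7 and 76.7 CPM in the siFLI1 libraries. No siFLI1 library overlapped a siNeg library, and the TC-71 siFLI1 libraries reached about the level of siNeg libraries in TC-32. SPRY1 rose by 3.60 (SE 0.0492, adjusted p = 2.33e-18) in A673, 3.53 (SE 0.0861, 1.27e-21) in TC-32 and 2.54 (SE 0.211, 6.83e-12) in TC-71 on the log2 scale.

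SPRY2 (ENSG00000136158.11, chromosome 13, 80335976 to 80341126) encodes the Sprouty protein known to hold the ubiquitin ligase CBL and the adaptor GRB2. SPRY2 in TC-32 stood at 13.5, 13.1 and 12.8 CPM in the siNeg libraries and 47.8, 47.7 and 47.9 CPM in the siFLI1 libraries. SPRY2 in TC-71 stood at 1.60, 1.72 and 1.60 CPM in the siNeg libraries and 3.77, 4.44 and 3.72 CPM in the siFLI1 libraries. SPRY2 in A673 stood at 6.76, 6.82 and 6.42 CPM in the siNeg libraries and 99.1, 100.3 and 99.9 CPM in the siFLI1 libraries. All 3 lines had separate groups, and A673 moved from below TC-32 to above it. SPRY2 rose by 3.90 (adjusted p = 6.41e-19) in A673, 1.86 (2.25e-18) in TC-32 and 1.28 (8.98e-08) in TC-71 on the log2 scale, and its A673 rise was the largest of the 3 Sprouty genes in that line.

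SPRY4 (ENSG00000187678.9, chromosome 5, 142310427 to 142326455), a Sprouty gene that follows ERK output closely in many tumours, was almost absent from TC-71 siNeg libraries. There it held 2, 3 and 1 counts (0.0743, 0.152 and 0.0347 CPM), and 135, 145 and 223 counts (5.52, 5.55 and 6.01 CPM) with siFLI1. Summed over the libraries, 6 counts faced 503, a ratio of 72.1 after scaling to depth with an exact 95% interval of 32.9 to 197.5 that covers counting error only. SPRY4 in TC-32 stood at 5.36, 6.03 and 6.19 CPM in the siNeg libraries and 16.2, 15.2 and 16.4 CPM in the siFLI1 libraries. SPRY4 in A673 stood at 30.9, 31.2 and 31.6 CPM in the siNeg libraries and 57.9, 63.1 and 57.1 CPM in the siFLI1 libraries. The groups were apart in every line, with the siNeg level in A673 above the siFLI1 level in both other lines. SPRY4 rose by 0.93 (adjusted p = 2.37e-11) in A673, 1.44 (6.96e-13) in TC-32 and 6.09 (1.90e-17) in TC-71 on the log2 scale. SPRY4 in TC-71 rests on so few siNeg counts that its fitted value ranged from 5.67 to 6.61 when single libraries were left out.

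**Figure D2:**
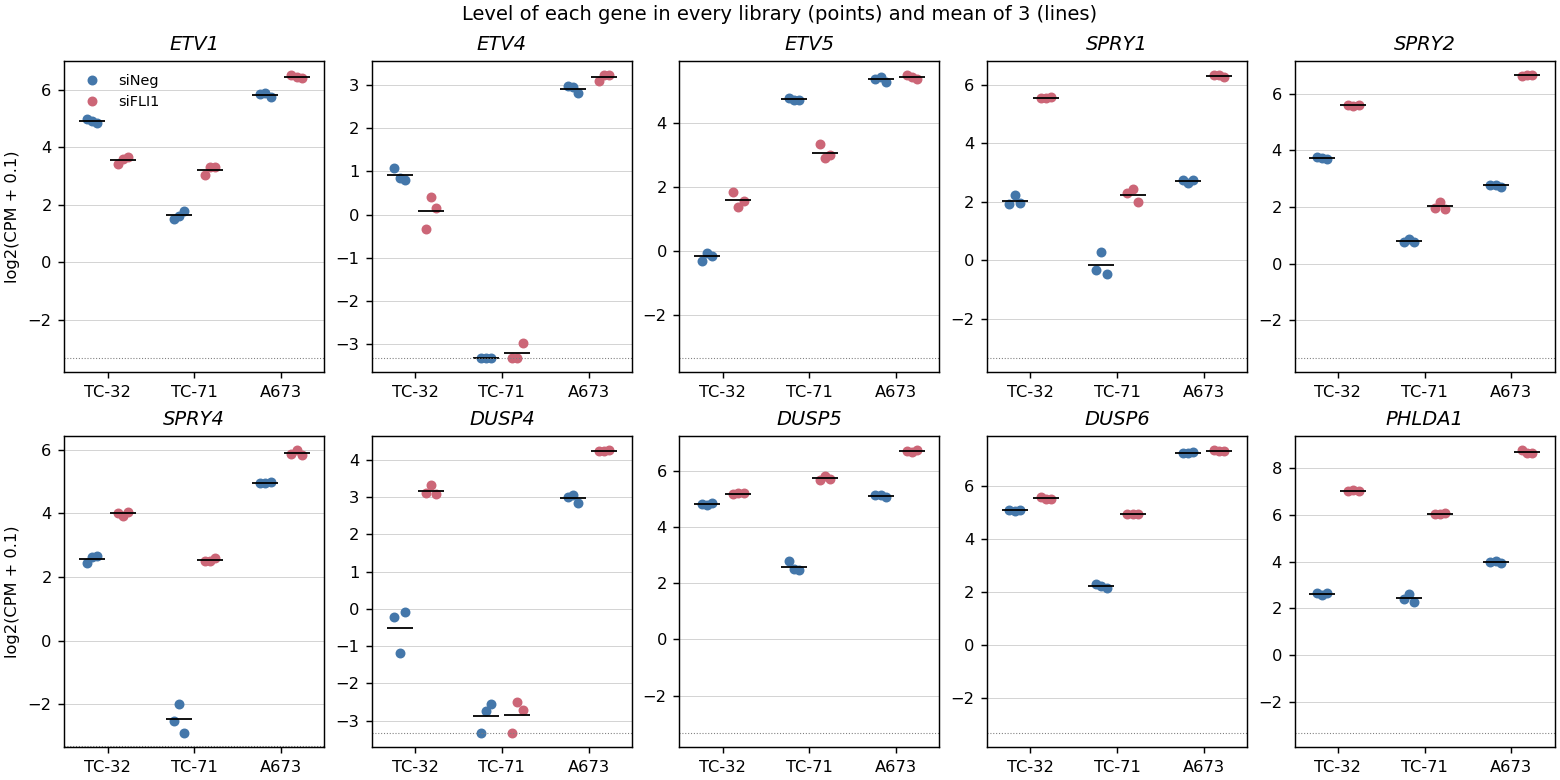
Level of each of the 10 genes (panels) in all 18 libraries, as log2 of CPM plus 0.1 on the vertical axis, by line, with siNeg in blue, siFLI1 in red, points for libraries and lines for means of 3. The dotted line marks a CPM of 0, where ETV4 and DUSP4 lie in some TC-71 libraries, and SPRY4 and DUSP6 show unlike distances between siNeg and siFLI1 in the 3 lines.

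The phosphatases split by line: DUSP5 and DUSP6 rose most in TC-71, and DUSP4 rose most in TC-32. DUSP6 (ENSG00000139318.7, chromosome 12, 89347235 to 89352501) encodes the cytoplasmic phosphatase that acts on ERK with high selectivity. DUSP6 in TC-32 stood at 33.5, 33.1 and 33.5 CPM in the siNeg libraries and 48.1, 45.5 and 45.3 CPM in the siFLI1 libraries. DUSP6 in TC-71 stood at 4.83, 4.56 and 4.34 CPM in the siNeg libraries and 30.4, 30.3 and 30.4 CPM in the siFLI1 libraries. DUSP6 in A673 stood at 149, 151 and 154 CPM in the siNeg libraries and 161, 158 and 159.7 CPM in the siFLI1 libraries. The groups did not overlap in any line, but in A673 the gap was narrow beside the level, which per kilobase of exon was the highest of the 10 genes among siNeg groups. The log2 fold change was 0.47 (SE 0.0582, adjusted p = 6.97e-08) in TC-32 and 2.73 (SE 0.0881, 1.13e-21) in TC-71. In A673 it was 0.08 (95% interval 0.000971 to 0.149, adjusted p = 0.0653) and was not called. This A673 call depends on the processing: over 14 alternatives the value lay between -0.03 and 0.09, with adjusted p between 0.0315 and 0.477, and 5 alternatives called a rise. These were RLE factors, a mean of at least 10 counts, DESeq2, and the fits without siFLI1 replicate 1 (0.08) or siFLI1 replicate 2 (0.09). DUSP6 shares 28.6% of its exon bases with a long noncoding RNA on the opposite strand, which held 78 to 108 counts in A673 siNeg libraries and 36 to 57 with siFLI1, and at most 22 in TC-32 and TC-71.

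DUSP5 (ENSG00000138166.5, chromosome 10, 110497907 to 110511533) encodes a nuclear phosphatase that binds ERK. DUSP5 in TC-32 stood at 28.3, 27.2 and 28.7 CPM in the siNeg libraries and 36.0, 36.7 and 36.9 CPM in the siFLI1 libraries. DUSP5 in TC-71 stood at 6.83, 5.58 and 5.52 CPM in the siNeg libraries and 50.7, 56.6 and 52.2 CPM in the siFLI1 libraries. DUSP5 in A673 stood at 35.3, 35.0 and 33.8 CPM in the siNeg libraries and 105, 102 and 106 CPM in the siFLI1 libraries. Each line had separate groups, and TC-71 passed from the lowest line in siNeg to above TC-32 in siFLI1. DUSP5 rose by 1.59 (adjusted p = 3.96e-15) in A673, 0.38 (3.84e-06) in TC-32 and 3.15 (1.18e-23) in TC-71 on the log2 scale.

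DUSP4 (ENSG00000120875.8, chromosome 8, 29333064 to 29350684), a nuclear phosphatase of ERK and related kinases, was the phosphatase with the lowest counts. DUSP4 in TC-32 held 18, 9 and 20 counts in the siNeg libraries and 222 to 332 in the siFLI1 libraries, or 0.754, 0.339 and 0.842 CPM against 8.51, 9.86 and 8.32 CPM. DUSP4 in A673 stood at 7.86, 8.18 and 7.09 CPM in the siNeg libraries and 18.6, 18.8 and 18.9 CPM in the siFLI1 libraries. Both lines had separate groups, with log2 fold changes of 3.80 (SE 0.199, adjusted p = 7.28e-15) and 1.28 (SE 0.0595, 9.36e-12). In TC-71 the counts were 0, 1 and 2 in siNeg and 0, 2 and 2 in siFLI1, at or under the limit of 3 counts that a count of 0 allows, and a change was not detectable at this depth.

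Among the PEA3 factors, no gene was called in the same direction in all 3 lines. ETV1 (ENSG00000006468.13, chromosome 7, 13891229 to 13991425), an activator that ERK phosphorylates, fell in TC-32 and rose in the other lines. ETV1 in TC-32 stood at 31.4, 29.9 and 28.7 CPM in the siNeg libraries and 10.7, 11.97 and 12.7 CPM in the siFLI1 libraries. ETV1 in TC-71 stood at 2.75, 2.99 and 3.33 CPM in the siNeg libraries and 8.18, 9.79 and 9.78 CPM in the siFLI1 libraries. ETV1 in A673 stood at 58.7, 59.7 and 53.7 CPM in the siNeg libraries and 91.5, 87.5 and 86.1 CPM in the siFLI1 libraries. The siFLI1 libraries lay wholly below siNeg in TC-32 and wholly above in TC-71 and A673, and the levels of TC-32 and TC-71 lay closer together with siFLI1. ETV1 was at 0.62 (SE 0.0462, adjusted p = 4.00e-09) in A673, -1.34 (SE 0.0778, 5.08e-14) in TC-32 and 1.61 (SE 0.127, 2.05e-12) in TC-71 on the log2 scale.

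ETV5 (ENSG00000244405.7, chromosome 3, 186046314 to 186110318), a PEA3 factor that responds to fibroblast growth factor signalling in many tissues, had the opposite order. ETV5 in TC-32 held 17, 23 and 19 counts in siNeg and 90, 83 and 84 in siFLI1, or 0.712, 0.867 and 0.800 CPM against 3.45, 2.46 and 2.84 CPM. ETV5 in TC-71 stood at 27.1, 25.6 and 26.1 CPM in the siNeg libraries and 9.94, 7.27 and 7.84 CPM in the siFLI1 libraries. ETV5 in A673 stood at 40.9, 42.2 and 38.4 CPM in the siNeg libraries and 44.3, 42.5 and 40.8 CPM in the siFLI1 libraries. The groups were apart in TC-32, where siFLI1 was higher, and in TC-71, where it was lower, and they overlapped in A673. The log2 fold change was 1.86 (SE 0.232, adjusted p = 7.92e-08) in TC-32 and -1.66 (SE 0.0918, 5.29e-16) in TC-71. In A673 it was 0.07 (95% interval -0.0321 to 0.171, adjusted p = 0.205), and the interval leaves room for a change of either sign.

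ETV4 (ENSG00000175832.12, chromosome 17, 43527844 to 43579620), the founding PEA3 factor, was low outside A673. ETV4 in TC-32 held 48, 45 and 39 counts in siNeg and 18, 41 and 30 in siFLI1, or 2.01, 1.70 and 1.64 CPM against 0.690, 1.22 and 1.01 CPM. ETV4 in A673 stood at 7.76, 7.71 and 6.99 CPM in the siNeg libraries and 8.42, 9.31 and 9.31 CPM in the siFLI1 libraries. It was lower in TC-32 and higher in A673 without overlap in either, with log2 fold changes of -0.85 (SE 0.254, adjusted p = 0.00376) and 0.27 (SE 0.0682, 0.00239). TC-71 held 1 ETV4 read in 6 libraries, so no fold is given there. When A673 was scaled by library size alone, the median of all genes shifted from -0.01 to -0.11. Under that scaling ETV4 was at 0.16 (adjusted p = 0.0423), ETV1 at 0.52, ETV5 at -0.033 and DUSP6 at -0.028, the last pair not called.

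Summed over a family, and scaled to CPM per kilobase of exon so that genes can be compared, the PEA3 sum was lower with siFLI1 in 2 lines, while the Sprouty and phosphatase sums were higher in all 3. These sums were not tested. Exon length here is the union of all annotated exons of a gene, not the length of the transcripts expressed. Sums and shares depend on it, so comparison between genes is approximate. The PEA3 sum was 3.77 ± 0.191 in siNeg and 2.01 ± 0.0999 in siFLI1 in TC-32 (CPM per kilobase, SD, n = 3), 4.86 ± 0.110 and 2.41 ± 0.150 in TC-71, and 15.1 ± 0.785 and 19.1 ± 0.461 in A673. The leading factor differed: ETV1 made up 82.9% of the PEA3 sum in TC-32 siNeg libraries and 61.0% with siFLI1, while ETV5 went from 3.65% to 25.3%. In TC-71, ETV5 made up 93.5% and then 59.7%, and ETV1 6.49% and then 40.2%. TC-32 and TC-71 thus moved from 1 dominant factor towards a mixture, while in A673 ETV1 and ETV5 were both abundant at the outset (39.5% and 46.4%, then 48.1% and 38.5%).

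The Sprouty sum was 8.47 ± 0.0266 CPM per kilobase in siNeg and 59.9 ± 0.930 in siFLI1 in A673, 5.99 ± 0.152 and 29.0 ± 0.253 in TC-32, and 0.729 ± 0.0980 and 3.28 ± 0.258 in TC-71. SPRY4 led in A673 siNeg libraries with 56.2% of the sum, and SPRY2 led there with siFLI1 at 51.8%. In TC-32 and TC-71, SPRY2 led in both groups, at 68.2% and then 51.2% in TC-32, and 70.5% and then 37.7% in TC-71. For the phosphatases, the sum was 54.0 ± 0.325 in siNeg and 85.2 ± 1.04 in siFLI1 in A673, 19.8 ± 0.379 and 27.6 ± 0.195 in TC-32, and 3.55 ± 0.347 and 28.9 ± 1.20 in TC-71. DUSP6 made up 72.7% of that sum in A673 siNeg libraries and 48.6% with siFLI1, where DUSP5 reached 48.4%. DUSP5 led in both groups of the other lines.

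**Figure D3:**
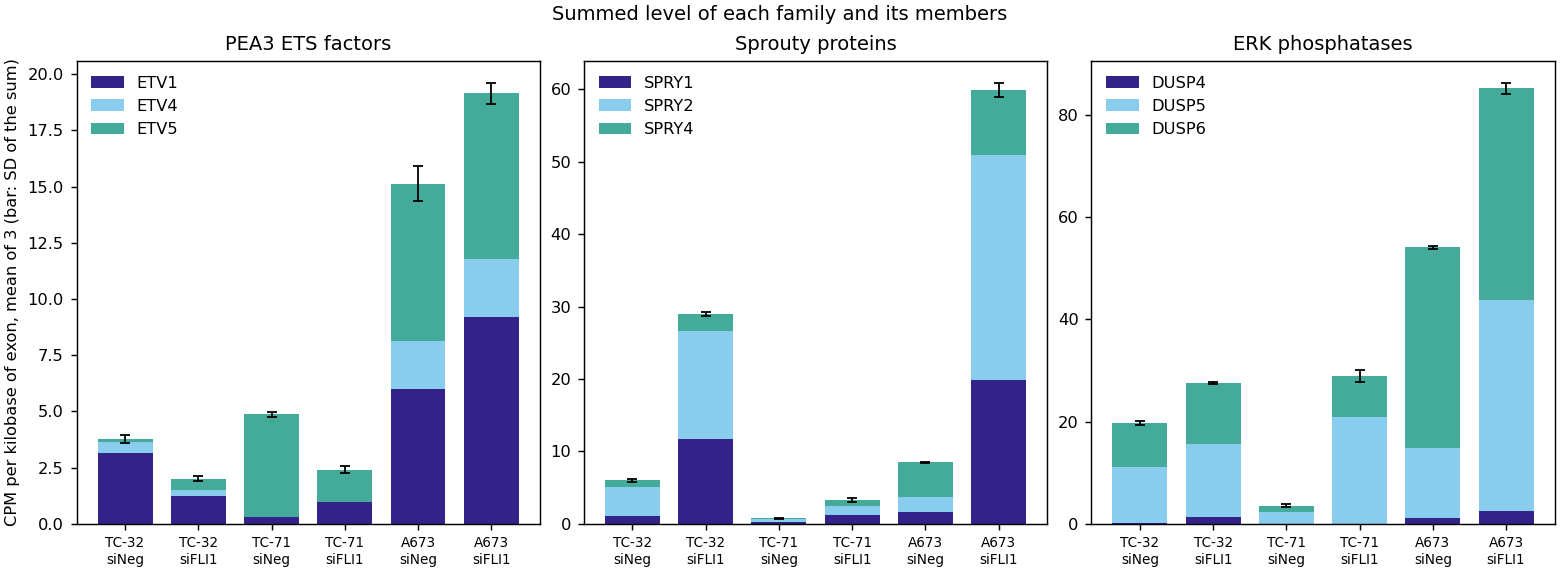
Mean level of each family in CPM per kilobase of exon (vertical axis), stacked by gene, for the 6 groups of 3 libraries, with the SD of the sum as error bars. The PEA3 bars are lower with siFLI1 in TC-32 and TC-71 and higher in A673, and the Sprouty and phosphatase bars are higher with siFLI1 in all 3 lines.

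Levels across lines are a description, since the tables were quantified separately and TC-71 with another counter. A673 had the highest mean CPM of all 10 genes in both groups, except for SPRY2 in siNeg, where TC-32 led. Neighbouring lines did not overlap in any gene or group except PHLDA1 in siNeg, where TC-32 and TC-71 did. The ratio of the highest line mean to the lowest was smaller with siFLI1 for DUSP6 (33.1 in siNeg and 5.26 in siFLI1), ETV5 (51.1 and 14.6), ETV1 (19.0 and 9.55) and DUSP5 (5.81 and 2.86). It was larger for SPRY1 (7.93 and 16.9), SPRY2 (8.01 and 25.1) and PHLDA1 (2.95 and 6.21). No ratio is given for SPRY4 in siNeg, or for ETV4 and DUSP4, because TC-71 was at the limit of detection.

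Whether the response differed between lines was tested directly, as a difference of log2 fold changes in a model of all 18 libraries. Between TC-32 and A673, 9 of the 10 genes differed, where 62.1% of 19610 genes did. Between TC-32 and TC-71, 8 of 8 differed (53.6% of all genes), and between A673 and TC-71, 8 of 8 (51.6%). The comparisons share libraries, so they are not independent of each other, and the median difference over all genes was 0.01, -0.11 and -0.07. SPRY1 was the exception: its rise in TC-32 and A673 differed by -0.05 (95% interval -0.287 to 0.192, adjusted p = 0.766), while the rise in TC-71 was smaller than in A673 by 1.03 (adjusted p = 0.000260). The rise of SPRY4 was larger in TC-71 than elsewhere, with differences of -4.69 for TC-32 minus TC-71 and -5.23 for A673 minus TC-71 (adjusted p = 1.60e-14 and 4.62e-17). SPRY2 had the reverse order, with a rise in A673 that exceeded that in TC-71 by 2.59 (adjusted p = 6.22e-16). The ETV1 response in TC-32 minus that in TC-71 was -2.97 (adjusted p = 1.56e-19), and for ETV5 it was 3.51 (adjusted p = 6.52e-16). The response of DUSP6 in TC-32 exceeded that in A673, where no rise was called, by 0.42 (95% interval 0.297 to 0.549, adjusted p = 3.05e-07). The TC-32 and A673 responses of PHLDA1 differed by -0.26 (adjusted p = 0.00777), a call lost under scaling by library size alone (-0.14, adjusted p = 0.156).

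Other genes of the pathway were read from lists of known function, written with earlier results of these data known. The list of further restraints on RAS and ERK, 14 genes with SPRY3 and the Sprouty-related SPRED genes, rose in its larger part: 10 rose and 2 fell of 14 tested in TC-32, 8 and 2 of 13 in TC-71, and 10 and 2 of 14 in A673. Over all genes tested, 41.3% rose and 40.1% fell in TC-32, 36.8% and 35.0% in TC-71, and 35.6% and 35.4% in A673, which holds for each list below. Its median log2 fold change was 0.77 in A673, 0.77 in TC-32 and 0.75 in TC-71, where the medians of all genes were near 0. Those that rose in all lines were SPRED1, SPRED3, IL17RD, ERRFI1, DUSP1 and DUSP2. IL17RD, the membrane protein also called Sef that restrains fibroblast growth factor signalling, went from 0.878 ± 0.284 to 23.2 ± 1.11 CPM (SD, n = 3) in TC-32, with log2 fold changes of 4.70, 1.50 and 1.70 in TC-32, TC-71 and A673. ERRFI1, an inhibitor of the EGF receptor, had 1.27, 4.06 and 4.02 in the same order and went from 63.2 ± 0.469 to 1024 ± 41.9 CPM in A673. DUSP1, a nuclear phosphatase of several MAP kinases, had 1.91, 2.00 and 1.66. PEBP1, which binds RAF and blocks it, fell in all 3 lines (-0.68, -0.29 and -0.19), and DUSP9, a cytoplasmic ERK phosphatase, fell in TC-32 (-1.02) and TC-71 (-2.28). In A673 the largest called fall of the list was that of SPRED2 (-0.28). The 3 phosphatases of the kinases JNK and p38, DUSP8, DUSP10 and DUSP16, rose in every line, with DUSP8 at 1.43, 3.27 and 2.21. DUSP10 was low in A673, with 11 to 20 siNeg and 31 to 46 siFLI1 counts. In TC-71 it held 0 to 7 and 11 to 26, and its fitted value ranged from 1.90 to 4.41 when single libraries were left out.

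The pathway above ERK showed no such lean. Of 18 genes from the adaptors to the ERK kinases and their substrates, 6 rose and 8 fell in TC-32, 9 and 6 in TC-71, and 8 and 7 in A673, with median log2 fold changes of -0.06, 0.10 and -0.06. Those that moved one way in all lines were SHC1, SOS2, KSR1 and MAP2K2, which rose, and PTPN11, NRAS and RPS6KA1, which fell. In A673, the call of RPS6KA1 (-0.17) was lost without siNeg replicate 1 (-0.12, adjusted p = 0.112) or siFLI1 replicate 1 (-0.12, adjusted p = 0.0561), and that of KSR1 was lost under 3 alternatives given below. PTPN11, the phosphatase SHP2 that links receptors to RAS, fell by 0.28 in A673, 1.07 in TC-32 and 0.70 in TC-71 on the log2 scale. Receptor tyrosine kinases were divided too: 7 rose and 4 fell of 13 tested in TC-32, 5 and 5 of 10 in TC-71, and 7 and 4 of 12 in A673. FGFR1, PDGFRB, MET and IGF1R rose in all 3 lines, and FGFR3, FGFR4 and ALK fell. MET, the receptor of hepatocyte growth factor, had log2 fold changes of 0.21, 1.13 and 2.66 in TC-32, TC-71 and A673, the first of which lost its call without siNeg replicate 3 (0.15, adjusted p = 0.0526). PDGFRA, another receptor, had the largest rise of the list in TC-32 (2.21, adjusted p = 5.19e-20).

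Of 13 further genes grouped here as ERK output, not all of them established ERK targets, 6 rose and 5 fell in TC-32, 9 and 4 in TC-71, and 8 and 3 in A673. EGR1 and IER3, both immediate early genes, rose in all 3 lines. Log2 fold changes in TC-32, TC-71 and A673 were 1.73, 2.37 and 0.39 for EGR1 and 2.58, 3.72 and 2.33 for IER3. Other immediate early genes moved both ways: in the same order, EGR2 had 1.51, -1.48 and -1.16, and IER2 0.20, 0.89 and -0.41. FOS had -0.61, 3.00 and 0.16, the last not called, and MYC had -2.71, -0.73 and 0.36. Opposite-strand genes overlap 38.9% of the exon bases of IER3 and 52.2% of those of IER2. CCND1, the cyclin that carries growth signals to the cell cycle, fell in all 3 lines, from 1212 ± 36.5 to 60.5 ± 2.93 CPM in TC-32, with log2 fold changes of -4.32, -2.39 and -1.77, and it also stands among the Ewing sarcoma markers. FOSL1, an AP-1 subunit, had the largest rise in A673 (4.35, adjusted p = 5.40e-14), and EGR3 the largest in TC-71 (4.14, adjusted p = 4.23e-12). The EGR3 value rests on 2 to 6 counts per siNeg library in TC-71, against 61 to 95 with siFLI1. PHLDA3 had 1.99, 0.17 and 0.17, and its calls in TC-71 and A673 were each lost under several alternatives. Of 7 genes that act on PEA3 factors, namely the repressor capicua, its partners and the machinery that degrades the proteins, 5 rose and 2 fell in TC-32, 5 and 0 in TC-71, and 4 and 1 in A673. ATXN1, a partner of capicua, rose in all 3 lines (1.91, 2.04 and 0.69), TRIB2 had the largest rise in A673 (1.24), and CIC itself was called higher in TC-32 (0.57) and TC-71 (0.53). TRIB1 and DET1, parts of the COP1 ubiquitin ligase system, moved both ways. TRIB1 rose in TC-71 (1.395) and A673 (0.57) and fell in TC-32 (-0.23), and DET1 rose in TC-32 (0.40) and fell in A673 (-0.80).

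**Figure D4:**
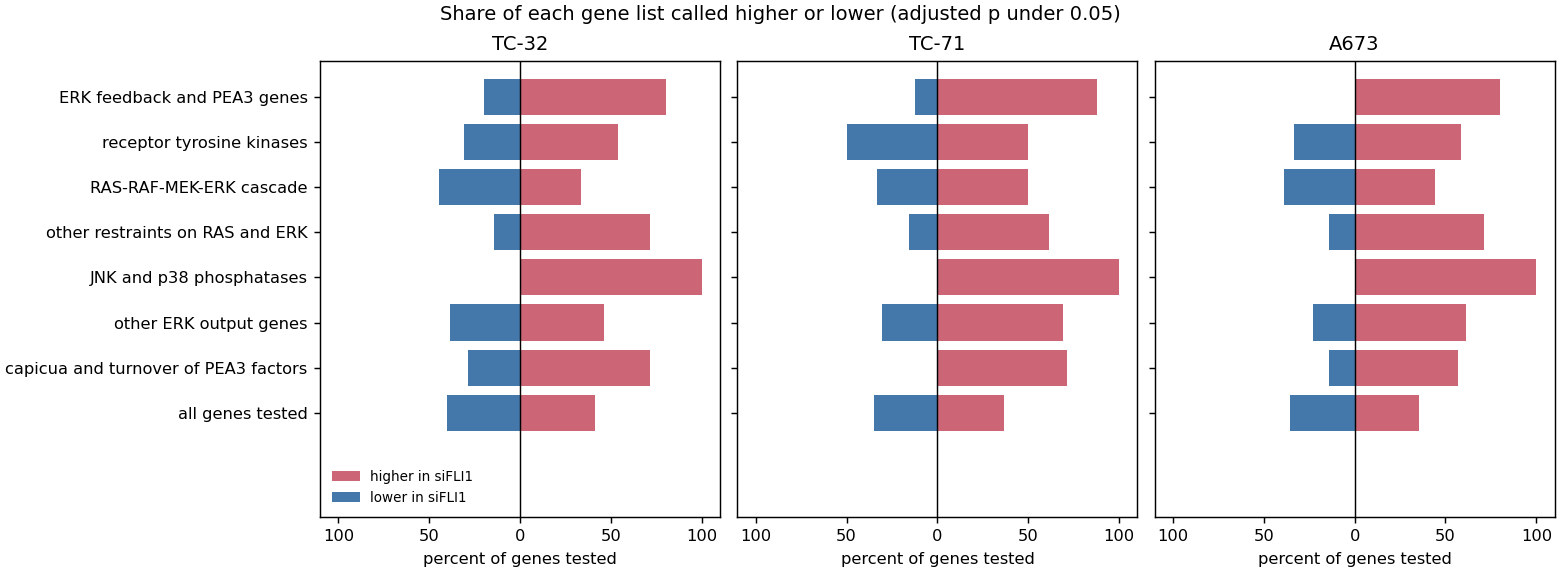
Share of the genes tested (horizontal axis, percent) called higher to the right and lower to the left of 0 with siFLI1, for the 10 genes, 6 pathway lists and all genes tested, in each line. The lists of restraints and of JNK and p38 phosphatases lean to the right in all 3 lines, while receptors and cascade lie on both sides.

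The genes whose profile lay nearest to 4 of the members were found by Euclidean distance over the 18 libraries, on log2 of CPM plus 0.5 minus the siNeg mean of the line. Nearest to DUSP6 among 11065 genes were KSR1, a scaffold of the RAF, MEK and ERK kinases (distance 0.809), SLC22A23, a transporter (0.973), and SHOX2, a homeobox factor (0.977). KSR1 had log2 fold changes of 0.59, 2.29 and 0.15 in TC-32, TC-71 and A673, of which the A673 value lost its call under library size alone (0.04, adjusted p = 0.491) and without siNeg replicate 3 (0.12) or siFLI1 replicate 2 (0.08). Nearest to SPRY4 were MMP2, a matrix metalloproteinase (0.390), and ZFP36L1, which promotes mRNA decay (0.485). The added 0.5 CPM holds down the TC-71 value of SPRY4, and the fitted log2 fold change of MMP2 there was 3.35. Nearest to ETV5 were HOXB9, a homeobox factor (0.578), JAG2, a Notch ligand (0.708), and SLC17A7, a glutamate transporter (1.11). HOXB9 rose in TC-32 and fell in TC-71 as ETV5 did, at 1.33, -1.83 and -0.10 in TC-32, TC-71 and A673. Nearest to PHLDA1 were COL6A3, a chain of collagen VI (1.47), MXRA8 (1.47) and LRRC32 (1.73). By Pearson correlation of the same values, 1 of the 3 nearest was shared for DUSP6, 3 for SPRY4, 2 for ETV5 and 0 for PHLDA1. Genes of like profile share the libraries and the large effect of the siRNA, and nothing about common control follows.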

How the data were processed

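Messenger RNA libraries were made with a stranded kit, per the labels' protocols. The authors deposited expected counts for A673 and TC-32, which the table names attribute to RSEM, and counts from Subread for TC-71, neither of them scaled to depth. The submitters' processing notes list cutadapt 4.4, STAR 2.7.3, featureCounts, Subread 2.0.3, limma 3.38.3 and GRCh38 without roles. The strand setting of counting is not given in the sources used here. The line of the TC-32 and TC-71 columns rests on the table name. These 12 columns also name 48 h.

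Expected counts were rounded. Each line was fitted alone in edgeR 4.0.16 (R 4.3.3) with filterByExpr, TMM, robust dispersions and the quasi-likelihood F-test. Benjamini-Hochberg adjustment covered every gene tested. Differences between lines were interaction contrasts in a model with 6 group means. Log2 fold changes carry a prior count of 0.125, and SEs and intervals are from unshrunken coefficients. Exon lengths and overlaps came from GENCODE release 44, where 57754 of 58336 identifiers were found. Intervals of summed counts and the floor of 3 counts cover counting error only. The fits were run on simulated data in which only a small share of genes was changed, unlike in these lines. Scaling under a broad response was therefore not tested there. Alternatives were DESeq2 1.42.0, limma-voom (3.58.1), RLE factors, scaling by library size alone, filters of none or of 10 counts on average, unrounded counts, a replicate block, each library left out, and 12 libraries for differences.

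The members, lists, tests and alternatives were chosen with earlier results of these data known. From the lists, genes were named if called in the same direction in all 3 lines or if largest in their list in a line. CIC, SPRY3, EPHA2, EPHA4, EGR2, IER2, FOS and MYC were named outside this rule, after their values were seen.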

Additional observations from a re-analysis of the deposited data

Results flagged for a closer look

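A difference between lines in the response to siFLI1 was found for 25 of the 26 pairs of lines and genes that could be tested, by the interaction contrast in edgeR, with 51.6% to 62.1% of all genes called in the same contrasts. The values are differences of log2 fold changes, first line minus second. Between TC-32 and A673 they were -1.94 for ETV1, -1.08 for ETV4 and 1.81 for ETV5. Among the Sprouty genes they were -2.01 for SPRY2 and 0.54 for SPRY4. The phosphatases had 2.55 for DUSP4, -1.18 for DUSP5 and 0.42 for DUSP6, and PHLDA1 had -0.26.

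Between TC-32 and TC-71 the differences were -2.97 for ETV1 and 3.51 for ETV5, whose responses had opposite signs in these lines. SPRY1 had 0.98, SPRY2 0.58 and SPRY4 -4.69. DUSP5 had -2.77, DUSP6 -2.27 and PHLDA1 0.76. Between A673 and TC-71 the differences were -1.03 for ETV1 and 1.70 for ETV5. SPRY1 had 1.03, SPRY2 2.59 and SPRY4 -5.23, while DUSP5 had -1.59, DUSP6 -2.69 and PHLDA1 1.02. TC-71 was counted with another tool and A673 was sequenced more deeply, and FLI1 itself fell by different amounts in the lines. The part of these in the differences was not tested.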

How the results depend on the processing

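All 285 values of gene counts under an alternative, whether over all genes or over the 10 genes, stayed within 1.5 times the reported count. For single values of the 10 genes, 1076 of 1086 kept their direction and their side of the threshold, 5 gained a call, 1 lost it and 4 changed sign. With library size alone, the A673 values of ETV5 and DUSP6 became -0.033 and -0.028, and the difference of SPRY1 between TC-32 and A673 became 0.074. That difference ranged from -0.098 to 0.066 when single libraries were left out, the latter without TC-32 siNeg replicate 2. None of these was called in either fit. Outside the 10 genes, JAG2 in A673 became -0.081 with library size alone and ranged from -0.026 to 0.084 when single libraries were left out, with -0.010 without siNeg replicate 2, and was not called. The cause was not tested. With the replicate number as a block, 12467 genes were called in A673, 13053 in TC-32 and 12048 in TC-71, and 11800, 10104 and 9576 differed between TC-32 and A673, TC-32 and TC-71, and A673 and TC-71. No call of the 10 genes changed under the block. Deviations of same-numbered siNeg and siFLI1 libraries correlated weakly (from -0.205 to 0.0531), and those of other-numbered libraries were of similar size. With 3 libraries per group, these correlations cannot decide whether the numbers pair the libraries. ETV4 and DUSP4 held at most 1 and 2 counts per library in TC-71, so they could not be tested there.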

Other observations

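Of the 10 transcripts of a published score of MAP kinase pathway activity, 7 are among the genes described above, and the others are CCND1, EPHA2 and EPHA4. In TC-32, 6 of the 10 rose and 3 fell, in TC-71 5 of 8 tested rose and 3 fell, and in A673 7 of 10 rose and 1 fell. Over all genes tested, the shares were 41.3% and 40.1%, 36.8% and 35.0%, and 35.6% and 35.4%. EPHA2, an ephrin receptor, was called higher in TC-71 (log2 fold change 1.34, edgeR adjusted p = 2.51e-12) and A673 (0.53, 2.78e-08) and stood at -0.05 in TC-32 (0.399). EPHA4, a related receptor, fell in TC-32 (-0.46) and TC-71 (-0.61) and rose in A673 (1.01). No score over these genes was computed.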
